A study of Mus musculus with 36 samples.

Results

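*Pax2*, *Pax8*, *Lhx1*, *Emx2*, *Pou3f3*, *Irx1*, *Irx2* and *Irx3* encode transcription factors that pattern the early nephron, and their transcripts were followed in 36 RNA-seq libraries of cultured mouse nephron progenitor cells (NPCs). The 8 genes were chosen by name, with earlier results of these data known. They were matched by Ensembl identifier to the rows of 3 tables of normalized counts, which together list 30125 genes. The table of wild-type NPCs lists all 8. The table of the β-catenin experiments and that of the Tcf/Lef experiment list 7 each, so *Irx2* was not analysed in the former and *Irx1* was not analysed in the latter. A mean of at least 10 normalized counts over a table was required for testing, which 6 of the 8 passed in wild-type NPCs (*Irx1* and *Irx2* did not) and 5 in each of the other tables (the Irx genes did not).

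Nephrons form from NPCs of the cap mesenchyme, which leave self-renewal in response to a Wnt signal, gather into pretubular aggregates and become polarized renal vesicles. Wnt signaling stabilizes β-catenin, which enters the nucleus and acts with DNA-binding proteins of the Tcf/Lef family. *Pax2* and *Pax8* are paired-box factors of the nephric lineage, *Lhx1* is a LIM-homeodomain factor that appears as the renal vesicle forms and is needed for its patterning, and *Emx2* is a homeodomain factor needed for the urogenital epithelium. *Pou3f3* (Brn1) is a POU-domain factor of the distal part of the renal vesicle and later of the loop of Henle, and the Iroquois factors *Irx1*, *Irx2* and *Irx3* mark the intermediate part of the nephron tubule.

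All libraries were of primary NPCs from E16.5 kidneys, from which other cell types had been removed with magnetic beads. CHIR99021 (CHIR) inhibits the kinase GSK3 and so acts as a Wnt agonist. Wild-type NPCs received no CHIR (3 libraries), low CHIR (1.25 µM, 3 libraries) or high CHIR (5 µM, 3 libraries). β-catenin was removed in 2 ways. NPCs of the genotype Cas9-eGFP received sgRNAs to *Ctnnb1*, the gene for β-catenin, or an sgRNA to GFP as the control. NPCs of the genotype B-catenin_c_c, which carry a conditional *Ctnnb1* allele, were labelled Cre-pos when they received Cre mRNA and Cre-neg when they did not. Each of these 4 arms was taken in low and in high CHIR, with 2 libraries per group. In the third experiment Cas9-eGFP NPCs received sgRNAs to *Tcf7l1*, *Tcf7l2*, *Tcf7* and *Lef1* together (quadruple knockout, QKO) or to GFP, with 3 libraries per group except QKO in low CHIR, which had 2 (replicates 1 and 3). mCherry mRNA was transfected along with the guides or Cre, and mCherry+ cells were sorted. The removal period in low CHIR lasted 24 h for β-catenin and 48 h for the Tcf/Lef factors, and was followed by 24 h in low or high CHIR. Each β-catenin and Tcf/Lef library is therefore a mixture of cells in which removal may be partial. The sources do not say whether replicates came from separate animals or cultures, so the p-values measure only the spread between these libraries.

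Between 13089780 and 76071568 reads per library fell on genes. *Six2*, the defining NPC marker, was at 2716 to 3545 normalized counts in wild-type NPCs without or with low CHIR and at 60.5 to 79.6 in high CHIR. Replicate 3 of the wild-type NPCs in high CHIR stood apart: its mean correlation with the other 2 libraries of its group was 0.916, against 0.947 and 0.941 for those. Its *Wnt4*, *Axin2* and *Lef1* counts (11108, 3638 and 9125) were above those of replicates 1 and 2 (*Wnt4* 1315 and 1473), while its *Mecom* count (139 against 4078 and 4622) was below them. Summed endothelial markers were at 1424 in it against 914 and 694, and stromal markers at 6954 against 13389 and 4538. Wild-type fold changes and calls are given with and without this library where it changes a call or moves a count by over 1.5 times, and levels per kilobase and likeness between genes include it. In high CHIR the *Ctnnb1* count was 1630 and 1270 with *Ctnnb1* sgRNAs against 2632 and 2701 with GFP sgRNA (log2 fold change −0.89, adjusted p = 0.0429), but 2254 and 2583 with Cre against 2423 and 2207 without it. A gene count does not show which exons were lost, so it does not check the Cre allele. Of the 4 genes targeted in the QKO, *Tcf7* fell in high CHIR (−1.64, adjusted p = 0.0175) and *Lef1* (−2.12, adjusted p = 0.131, and 0.0476 with the replicate number as a block), *Tcf7l1* (0.15) and *Tcf7l2* (−0.35) did not pass the test. Gene counts cannot tell a lost protein from an intact one.

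In the GENCODE vM21 annotation of GRCm38, *Pax2* (ENSMUSG00000004231) lies on the forward strand of chromosome 19 from 44756045 to 44837871, and *Emx2* (ENSMUSG00000043969) lies on the same chromosome and strand from 59458372 to 59465357. *Pax8* (ENSMUSG00000026976) lies on the reverse strand of chromosome 2 from 24420560 to 24475599. *Lhx1* (ENSMUSG00000018698) lies on the reverse strand of chromosome 11 from 84518284 to 84525535. *Pou3f3* (ENSMUSG00000045515) lies on the forward strand of chromosome 1 from 42695768 to 42703176 and is annotated as 1 exon. *Irx1* (ENSMUSG00000060969, reverse strand, 71957921 to 71963723) and *Irx2* (ENSMUSG00000001504, forward strand, 72628820 to 72634198) share chromosome 13, and *Irx3* (ENSMUSG00000031734) lies on the reverse strand of chromosome 8 from 91798525 to 91802067.

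Promoter windows of *Lhx1* and *Emx2* are shown because each gene faces a noncoding gene on the opposite strand whose counts are described further on. The windows are RefSeq promoters of 300 bases on GRCm38.p6, from 250 bases before a start to 50 after it, and are printed 5′ to 3′ on the strand of the gene. For *Lhx1* (chr11:84525485-84525784, reverse strand) the capitals mark the 126 bases from the annotated start of *Lhx1os* to that of *Lhx1*. For *Emx2* (chr19:59458440-59458739, forward strand) the capitals mark the 196 bases that lie inside the annotated *Emx2os*. This window is placed on a RefSeq start and lies wholly downstream of the GENCODE start of *Emx2* at 59458372.
Lhx1: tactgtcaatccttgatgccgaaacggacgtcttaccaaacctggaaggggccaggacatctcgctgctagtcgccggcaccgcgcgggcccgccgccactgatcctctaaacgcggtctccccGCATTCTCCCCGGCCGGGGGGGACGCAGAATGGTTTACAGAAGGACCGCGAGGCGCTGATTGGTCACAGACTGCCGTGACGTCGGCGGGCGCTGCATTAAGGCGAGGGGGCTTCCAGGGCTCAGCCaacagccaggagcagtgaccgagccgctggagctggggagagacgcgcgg
Emx2: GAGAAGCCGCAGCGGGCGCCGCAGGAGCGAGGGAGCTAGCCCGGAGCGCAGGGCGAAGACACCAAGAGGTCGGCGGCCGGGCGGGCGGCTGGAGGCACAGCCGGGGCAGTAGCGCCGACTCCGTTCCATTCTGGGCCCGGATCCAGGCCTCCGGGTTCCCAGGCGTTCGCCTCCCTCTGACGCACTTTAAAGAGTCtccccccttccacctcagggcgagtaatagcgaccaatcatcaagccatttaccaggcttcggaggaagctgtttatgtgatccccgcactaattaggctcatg

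RefSeq promoters were matched for 7 members (all but *Irx1*), and *Pax2* had 3 of the 9 windows. The Tcf/Lef core TCAAAG, searched on both strands, was in 0 of the 9 and in 16% of the 32851 promoters of that length in the table. The longer ATCAAAG, which contains it, was in 0 of 9 and in 3.73% of all. GGGCGG, the GC box, was in 6 of 9 and in 35.7% of all, and CCAAT was in 5 of 9 and in 37.4% of all. Absence from these windows says only that the letters are not there, and the windows cover no distal enhancer.

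In wild-type NPCs the transcripts of *Pax2*, *Pax8*, *Lhx1*, *Emx2* and *Pou3f3* were higher in high CHIR in replicates 1 and 2 than in any library with less CHIR, while in replicate 3 *Pax8*, *Lhx1*, *Emx2* and *Pou3f3* were near or below the low CHIR libraries. *Irx3* was higher in all 3. Counts here are normalized counts, the reads of a gene divided by the size factor of the library, and a gene was called when the adjusted p of limma was under 0.05 and the log2 fold change, on log2(normalized count + 1), at least 0.5 in size. This scale understates changes of genes with few counts.

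*Pax2* was at 235, 319 and 270 normalized counts in no CHIR (replicates 1 to 3), at 752, 578 and 479 in low CHIR and at 1368, 1827 and 630 in high CHIR. Replicate 3 in high CHIR lay inside the low CHIR range, and the no CHIR group lay wholly below the low CHIR group. *Pax8* was at 1387, 925 and 775 in no CHIR, at 2499, 2682 and 1365 in low CHIR and at 7800, 7498 and 94.4 in high CHIR. The value of replicate 3 was the lowest of the 9 libraries, while the other 2 were the highest.

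*Lhx1* was at 291, 123 and 127 normalized counts in no CHIR, at 608, 743 and 297 in low CHIR and at 5949, 6706 and 104 in high CHIR. *Emx2* was at 65.2, 70.3 and 29.0 in no CHIR, at 147, 154 and 68.3 in low CHIR and at 3427, 3939 and 91.6 in high CHIR. Both genes thus had 2 libraries far above all others, with replicate 3 of high CHIR below the low CHIR group for *Lhx1* and inside it for *Emx2*. *Pou3f3* was at 84.4, 43.9 and 45.8 in no CHIR, at 139, 294 and 75.4 in low CHIR and at 878, 1348 and 149 in high CHIR, where replicate 3 lay inside the low CHIR range.

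*Irx3* was at 6.63, 0 and 11.2 normalized counts in no CHIR, at 11.8, 16.1 and 7.19 in low CHIR and at 82.9, 72.6 and 185 in high CHIR. Here the groups in low and high CHIR did not overlap, as in 14.8% of all genes tested upward, and replicate 3 was the highest. In *Irx1* the 9 libraries held between 0 and 4 reads, and in *Irx2* between 0 and 5, so that no response of either could be seen at this depth.

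**Figure D1:**
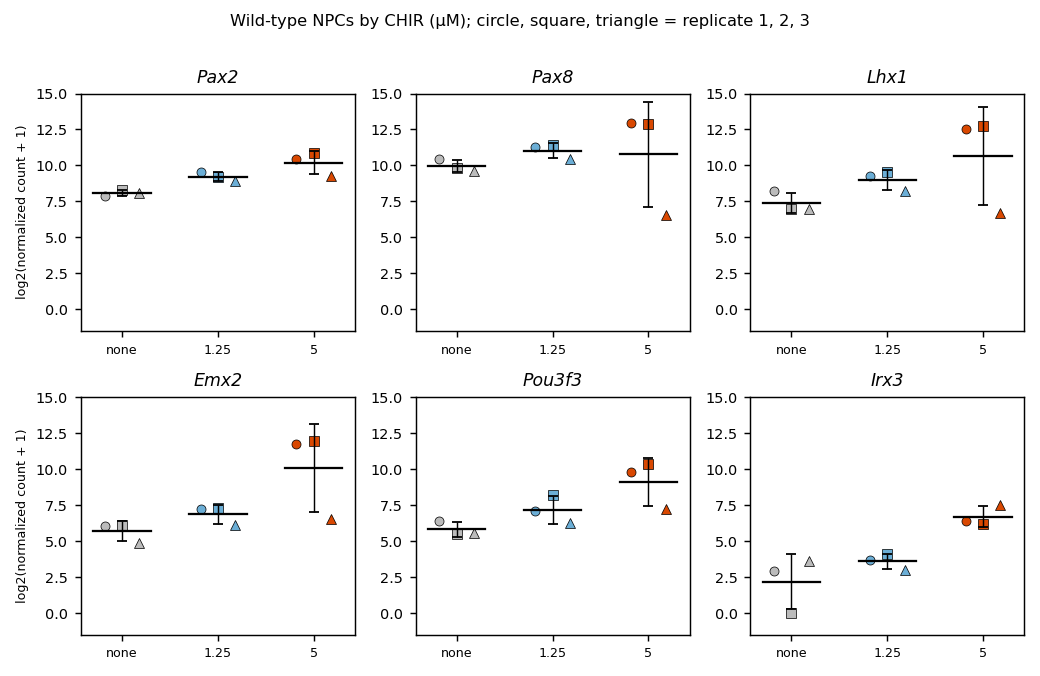
Normalized counts of 6 genes in wild-type NPCs, on a log2(normalized count + 1) axis, against the CHIR concentration in µM. Points are libraries (circle, square and triangle for replicates 1, 2 and 3), and lines and bars give the mean and SD on that axis (n = 3). In high CHIR the triangle of *Pax8*, *Lhx1* and *Emx2* lies far below the circle and square, while that of *Irx3* lies above them.

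With all 9 libraries, 1 of the 6 members tested was called in high against low CHIR, against 10.4% of all genes tested. It was *Irx3* (log2 fold change 3.11, SE 0.84, adjusted p = 0.0420), which passed the filter on low values through the high CHIR libraries, so that its call stands as a description. *Emx2* (3.21, SE 1.17, adjusted p = 0.117), *Pou3f3* (1.94, adjusted p = 0.137), *Lhx1* (1.65, adjusted p = 0.484), *Pax2* (0.97, adjusted p = 0.105) and *Pax8* (−0.24, SE 1.35, adjusted p = 0.938) were not called. Without replicate 3 of high CHIR, 5 of 6 were called, all higher, against 13.1% of all genes. The 5 were *Emx2* (4.98, adjusted p = 1.61e-05), *Lhx1* (3.62, adjusted p = 0.000124), *Pou3f3* (2.89, adjusted p = 0.00205), *Pax8* (1.87, adjusted p = 0.00115) and *Pax2* (1.41, adjusted p = 0.00140). *Irx3* then gave 2.69 and was not called (adjusted p = 0.0789), and it was also lost when any other of the 6 libraries was left out (adjusted p between 0.0620 and 0.153). The call of each of the 6 tested members between high and low CHIR therefore depended on this library.

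Against no CHIR, *Irx3* (log2 fold change 4.53, adjusted p = 0.00370), *Emx2* (4.37, adjusted p = 0.0216), *Pou3f3* (3.32, adjusted p = 0.00971) and *Pax2* (2.09, adjusted p = 0.00186) were higher in high CHIR, and *Lhx1* (3.27, adjusted p = 0.0919) and *Pax8* (0.83, adjusted p = 0.695) were not called. That was 4 of 6, against 23.4% of all genes, and without replicate 3 it was 6 of 6, against 25.8%. *Irx3* passed the filter through the high CHIR libraries here too, so its call and its part in these counts stand as a description. *Emx2* was no longer called without replicate 1 or 2 of high CHIR or replicate 2 or 3 of no CHIR (adjusted p between 0.0504 and 0.0822). Between no and low CHIR 0 of 6 members were called, against 4.97% of all genes, although all 6 had lower values in no CHIR, between −1.62 for *Lhx1* and −1.07 for *Pax8*. For *Pax2* (−1.12, adjusted p = 0.0904) and *Lhx1* (adjusted p = 0.506) the no CHIR group lay below the low CHIR group without overlap, which 16.8% of all genes did.

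Per kilobase of exon, *Pax8* stood first in no CHIR with 170 ± 52.6 normalized counts per kb (SD, n = 3), followed by *Pax2* (50.8) and *Lhx1* (44.3), whose ranges overlapped, then *Emx2* (18.3) and *Pou3f3* (7.83), which also overlapped, and *Irx3* (2.15). In high CHIR *Lhx1* stood first with 1044 ± 887 normalized counts per kb, followed by *Pax8* (847), *Emx2* (828), *Pax2* (236), *Pou3f3* (107) and *Irx3* (41.1). Because of replicate 3 the range of each of these overlapped that of the next, so that the order in high CHIR is not set by these libraries. *Irx1* and *Irx2* were under 1 normalized count per kb on average in every wild-type group.

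The controls of the β-catenin experiments gave the same high against low CHIR comparison after the 24 h removal period, in Cas9-eGFP NPCs with GFP sgRNA and in B-catenin_c_c NPCs without Cre. In both, *Pax2*, *Lhx1* and *Emx2* were higher in high CHIR, and *Pax8* and *Pou3f3* were not called. *Pax2* went from 113 and 154 normalized counts in low CHIR to 1039 and 1041 in high CHIR with GFP sgRNA, and from 159 and 168 to 833 and 865 without Cre. *Lhx1* went from 156 and 141 to 803 and 477 with GFP sgRNA, and from 109 and 47.6 to 485 and 1099 without Cre. *Emx2* went from 20.9 and 15.2 to 244 and 175 with GFP sgRNA, and from 0 and 9.16 to 106 and 330 without Cre. In none of these 3 genes did a high CHIR library overlap the low CHIR libraries of its arm, a separation found upward in 29.3% of all genes with GFP sgRNA and in 22.2% without Cre.

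*Pax8* was at 2526 and 1448 normalized counts in low CHIR and at 2346 and 1947 in high CHIR with GFP sgRNA, and at 1560 and 1011 in low CHIR and 1640 and 2334 in high CHIR without Cre. The first pair of groups overlapped, and the second lay just apart. *Pou3f3* was at 34.8 and 59.5 in low CHIR and at 42.0 and 53.6 in high CHIR with GFP sgRNA, and at 27.8 and 16.5 in low CHIR and 9.21 and 22.8 in high CHIR without Cre, with overlap in both arms. *Irx3* had a mean of 4.03 normalized counts over this table and was not tested, and *Irx1* had at most 3 reads in any of the 16 libraries.

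With GFP sgRNA, 3 of 5 members tested were called, against 7.51% of all genes: *Emx2* (log2 fold change 3.47, SE 0.91, adjusted p = 0.0345), *Pax2* (2.97, SE 0.28, adjusted p = 1.77e-05) and *Lhx1* (2.06, SE 0.44, adjusted p = 0.0106). *Emx2* was lost when any 1 of the 4 libraries was left out (adjusted p between 0.120 and 0.181), and *Lhx1* when any but replicate 2 of high CHIR was (adjusted p between 0.0546 and 0.119). Without Cre, 3 of 5 were called, against 8.05%: *Emx2* (5.88, adjusted p = 0.00104), *Lhx1* (3.32, adjusted p = 0.000284) and *Pax2* (2.37, adjusted p = 0.000109). The *Emx2* value rests on a library at 0 in low CHIR and so depends on the count of 1 added before the log. The intervals of *Pax8* (95% confidence interval −0.54 to 0.86 with GFP sgRNA and −0.06 to 1.34 without Cre) do not reach the 1.87 that wild-type NPCs gave without replicate 3, but the tables were normalized separately and the difference was not tested.

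After the 48 h period, the GFP sgRNA controls of the Tcf/Lef experiment had all 5 tested members higher in high CHIR. *Lhx1* was at 6.12, 16.8 and 9.51 normalized counts in low CHIR and at 2762, 7241 and 3135 in high CHIR. *Emx2* was at 2.45, 1.97 and 0.865 in low CHIR and at 985, 2490 and 851 in high CHIR. Both were close to undetected in low CHIR, and the groups were far apart. *Pou3f3* was at 3.67, 7.89 and 6.05 in low CHIR and at 43.7, 222 and 151 in high CHIR.

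*Pax8* in these controls was at 1020, 1573 and 2051 normalized counts in low CHIR and at 4183, 6801 and 7114 in high CHIR. *Pax2* was at 389, 216 and 222 in low CHIR and at 1149, 1287 and 928 in high CHIR. No high CHIR library of the 5 genes overlapped a low CHIR library, as in 14.1% of all genes upward. *Irx3*, at 8.56, 5.92 and 0 in low CHIR and 26.4, 23.3 and 7.44 in high CHIR, had a mean under 10 and overlapped, and *Irx2* had at most 4 reads in any of the 11 libraries.

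In these controls 5 of 5 members tested were called, all higher, against 14.9% of all genes: *Emx2* (log2 fold change 8.90, SE 0.61, adjusted p = 3.53e-06), *Lhx1* (8.50, SE 0.56, adjusted p = 2.72e-06), *Pou3f3* (4.11, SE 0.55, adjusted p = 0.000394), *Pax2* (2.06, adjusted p = 0.000302) and *Pax8* (1.98, adjusted p = 0.00246). *Lhx1*, *Emx2* and *Pou3f3* passed the filter on low values through the high CHIR libraries, so their calls stand as a description. The fitted values of *Emx2* and *Lhx1* depend on the added count, since low CHIR held only a few reads. Set beside the 24 h controls, the values of *Lhx1* were 2.06 and 3.32 at 24 h and 8.50 at 48 h, those of *Emx2* 3.47 and 5.88 and then 8.90, and those of *Pou3f3* 0.06 and −0.52 and then 4.11. *Pax8* gave 0.16 and 0.64 and then 1.98, while *Pax2* gave 2.97 and 2.37 and then 2.06. The experiments differ in removal period, guides, libraries and normalization, which cannot be told apart, and the differences between them were not tested. Summed blood markers were at 2973 in replicate 1 of high CHIR against 73.8 and 47.8 in the other 2, and that library had the lowest *Lhx1*, *Pax8* and *Pou3f3* values of its group. The part of blood cells in this was not tested.

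The next comparison asks which members depend on β-catenin in high CHIR. *Pax2* and *Lhx1* fell with both kinds of removal and *Pax8* fell with Cre, while *Emx2* and *Pou3f3* had lower counts, with calls that depended on the fit. *Pax2* was at 108 and 193 normalized counts with Cre against 833 and 865 without it, and at 284 and 283 with *Ctnnb1* sgRNAs against 1039 and 1041 with GFP sgRNA. *Lhx1* was at 84.8 and 104 with Cre against 485 and 1099 without it, and at 137 and 113 with *Ctnnb1* sgRNAs against 803 and 477. *Emx2* was at 10.1 and 44.9 with Cre against 106 and 330, and at 32.2 and 27.3 with *Ctnnb1* sgRNAs against 244 and 175. The groups with and without β-catenin did not overlap in any of these. In bulk samples fewer cells of a type and less RNA per cell cannot be told apart, here and in what follows.

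*Pax8* was at 979 and 646 normalized counts with Cre against 1640 and 2334 without it, and at 1600 and 1550 with *Ctnnb1* sgRNAs against 2346 and 1947 with GFP sgRNA. *Pou3f3* was at 6.06 and 4.86 with Cre against 9.21 and 22.8, and at 12.9 and 12.3 with *Ctnnb1* sgRNAs against 42.0 and 53.6. *Irx3*, below the filter, was at 2.02 and 0 with Cre against 5.52 and 18.7, and at 1.84 and 0 with *Ctnnb1* sgRNAs against 6.74 and 7.66. In all 5 tested members and in *Irx3* the libraries with β-catenin removed were below those of their control, in both arms. Such a separation was found downward in 23.1% of all genes with Cre and in 31.2% with *Ctnnb1* sgRNAs, since with 2 libraries a group it is frequent.

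**Figure D2:**
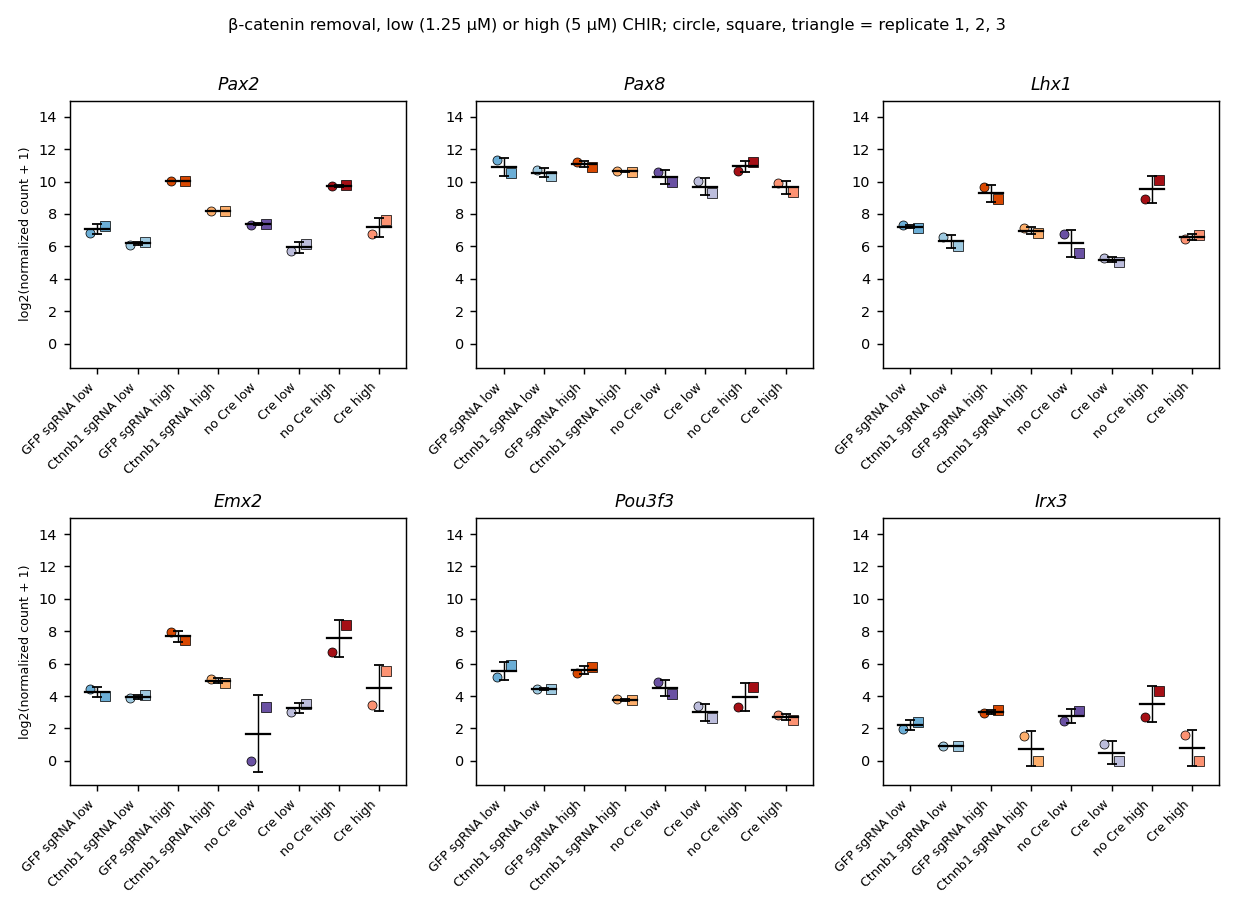
Normalized counts of 6 genes in the β-catenin experiments, on a log2(normalized count + 1) axis, in the 8 groups of Cas9-eGFP and B-catenin_c_c NPCs in low or high CHIR. Points are libraries (circle for replicate 1, square for replicate 2), and lines and bars give the mean and SD on that axis (n = 2). *Pax2*, *Lhx1* and *Emx2* are highest in the high CHIR groups that kept β-catenin, while *Pax8* stays between 627 and 2526 normalized counts in all groups.

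With Cre, 3 of 5 members were called in high CHIR, all lower, against 8.65% of all genes called in either direction and 2.75% called lower. They were *Lhx1* (log2 fold change −2.94, SE 0.44, adjusted p = 0.000728), *Pax2* (−2.55, SE 0.28, adjusted p = 6.57e-05) and *Pax8* (−1.30, SE 0.33, adjusted p = 0.0234). *Emx2* (−3.06, SE 0.91, adjusted p = 0.0559) and *Pou3f3* (−1.28, adjusted p = 0.190) were not called. *Pax8* was lost without replicate 2 of the no Cre group (−1.04, adjusted p = 0.170) or of the Cre group (−1.0, adjusted p = 0.181). With *Ctnnb1* sgRNAs, 2 of 5 were called, both lower, against 5.09% of all genes (1.64% lower): *Lhx1* (−2.31, SE 0.44, adjusted p = 0.00771) and *Pax2* (−1.87, SE 0.28, adjusted p = 0.00147). *Pou3f3* (−1.83, adjusted p = 0.0710), *Emx2* (−2.76, adjusted p = 0.104) and *Pax8* (−0.44, adjusted p = 0.501) were not called. With the replicate number as a block *Emx2* was called lower in both arms (adjusted p = 0.00137 with Cre and 0.00515 with *Ctnnb1* sgRNAs) and *Pou3f3* with *Ctnnb1* sgRNAs (adjusted p = 0.0409), against 15.7% and 12.7% of all genes in the 2 arms. With *Ctnnb1* sgRNAs, *Emx2* was also called by DESeq2 (adjusted p = 0.000157), and *Pou3f3* in a fit of only the groups compared (adjusted p = 0.0328). With Cre, DESeq2 held only replicate 2 of the Cre group in high CHIR and gave −2.28 for *Emx2*. Each comparison here holds 2 libraries a group, too few for their shared numbers to be taken as pairs. *Lhx1* was lost without replicate 1 of the GFP sgRNA group (−1.93, adjusted p = 0.0904) or replicate 2 of the *Ctnnb1* sgRNA group (−2.17, adjusted p = 0.10).

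The Cre and Cas9 arms were also tested against each other. *Pax8* fell by 0.86 more on the log2 scale with Cre than with *Ctnnb1* sgRNAs (95% confidence interval of the difference −1.85 to 0.13), and the interval of *Pax2* ran from −1.53 to 0.18. None of the 5 members was called between the arms, and limma called 0 of 16780 genes, while 3.34% had an unadjusted p under 0.05, edgeR called 0, DESeq2 called 8 and limma with a replicate block called 20. Nephron progenitor markers moved the other way beside the members: their summed count over 9 genes was between 13710 and 20140 with Cre against 6313 and 10910 without it, and between 18400 and 18810 with *Ctnnb1* sgRNAs against 9108 and 9370. In high CHIR 6 of these 9 markers rose with Cre, against 5.90% of all genes, and 1 fell, against 2.75%. With *Ctnnb1* sgRNAs 5 rose, against 3.44%. Endothelial sums were at 287 to 469 with Cre against 91.1 to 97.5, and at 527.2 to 540.5 with *Ctnnb1* sgRNAs against 90.0 to 181. Stromal sums were higher with Cre (7976 to 15270 against 5280 to 6956) and ureteric sums lower (2838 to 3317 against 3376 to 4397). With *Ctnnb1* sgRNAs both overlapped. The part of such cells in the member values was not tested.

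In low CHIR, β-catenin removal called none of the 5 members in either arm, and few genes were called at all (0.328% with Cre and 0.0536% with *Ctnnb1* sgRNAs). *Pax2* was at 50.7 and 70.8 normalized counts with Cre against 159 and 168 without it, and at 67.7 and 75.3 with *Ctnnb1* sgRNAs against 113 and 154 with GFP sgRNA. Its difference with Cre was −1.43 (SE 0.28, adjusted p = 0.0516). The libraries did not overlap in *Pax2*, *Lhx1* or *Pou3f3*, the treated ones being lower in both arms, a separation found downward in 18.2% and 14.0% of all genes. *Irx3* followed the same order in low CHIR, with at most 1 read per library after removal and between 3 and 8 reads in the controls.

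Whether the effect of removal differed between high and low CHIR was tested as an interaction. With Cre the estimate was −4.66 for *Emx2* (SE 1.29, adjusted p = 0.154), −1.93 for *Lhx1* (adjusted p = 0.255) and −1.12 for *Pax2* (adjusted p = 0.337), and none of the 5 members was called, against 0.995% of all genes. With *Ctnnb1* sgRNAs it was −2.49 for *Emx2* (adjusted p = 0.775), −1.39 for *Lhx1* (adjusted p = 0.696) and −1.0 for *Pax2* (adjusted p = 0.609), with none called against 0.518%. With the replicate number as a block *Emx2* was called with Cre (−4.66, adjusted p = 0.00389), against 3.13% of all genes. It was not called with only the groups compared. It was not called by edgeR or DESeq2 either, which held only replicate 2 of the Cre group in high CHIR. It was also called without replicate 2 of the no Cre group in low CHIR (−6.33, adjusted p = 0.0140), the other library of that group being at 0.

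A response to high CHIR was still measured in *Pax2* after removal with *Ctnnb1* sgRNAs, from 67.7 and 75.3 normalized counts to 284 and 283. Its log2 fold change was 1.97 (adjusted p = 0.00381), 1 of 5 members against 0.763% of all genes, and it was lost without replicate 1 of the high CHIR group (adjusted p = 0.0586). With Cre the same gene gave 1.26 (adjusted p = 0.144), and 0 of 5 members were called against 0.292%. *Lhx1* after removal gave 1.40 with Cre and 0.67 with *Ctnnb1* sgRNAs, and *Emx2* gave 1.23 and 0.97, with no call. Since removal may be partial in these sorted cells, remaining β-catenin and a response without it cannot be told apart.

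The last comparison asks which members depend on the Tcf/Lef factors. In high CHIR the QKO counts of *Emx2* lay below all control counts, those of *Lhx1*, *Pou3f3* and *Pax2* overlapped the controls at their lower end, and those of *Pax8* reached above them. *Emx2* was at 80.8, 445 and 360 normalized counts in the QKO against 985, 2490 and 851 with GFP sgRNA, and the groups did not overlap, as in 8.80% of all genes downward. *Lhx1* was at 844, 2810 and 2188 in the QKO against 2762, 7241 and 3135, where 1 QKO library lay just above the lowest control. *Pou3f3* was at 23.5, 38.4 and 46.3 against 43.7, 222 and 151, with overlap of the highest QKO library and the lowest control.

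*Pax8* was at 4663, 8586 and 9364 normalized counts in the QKO against 4183, 6801 and 7114 with GFP sgRNA, and each QKO library was above the control of the same replicate number. *Pax2* was at 511, 771 and 984 in the QKO against 1149, 1287 and 928, with the third replicates in the opposite order. *Irx3*, below the filter, was at 13.9, 5.19 and 2.89 against 26.4, 23.3 and 7.44, a range that overlapped.

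**Figure D3:**
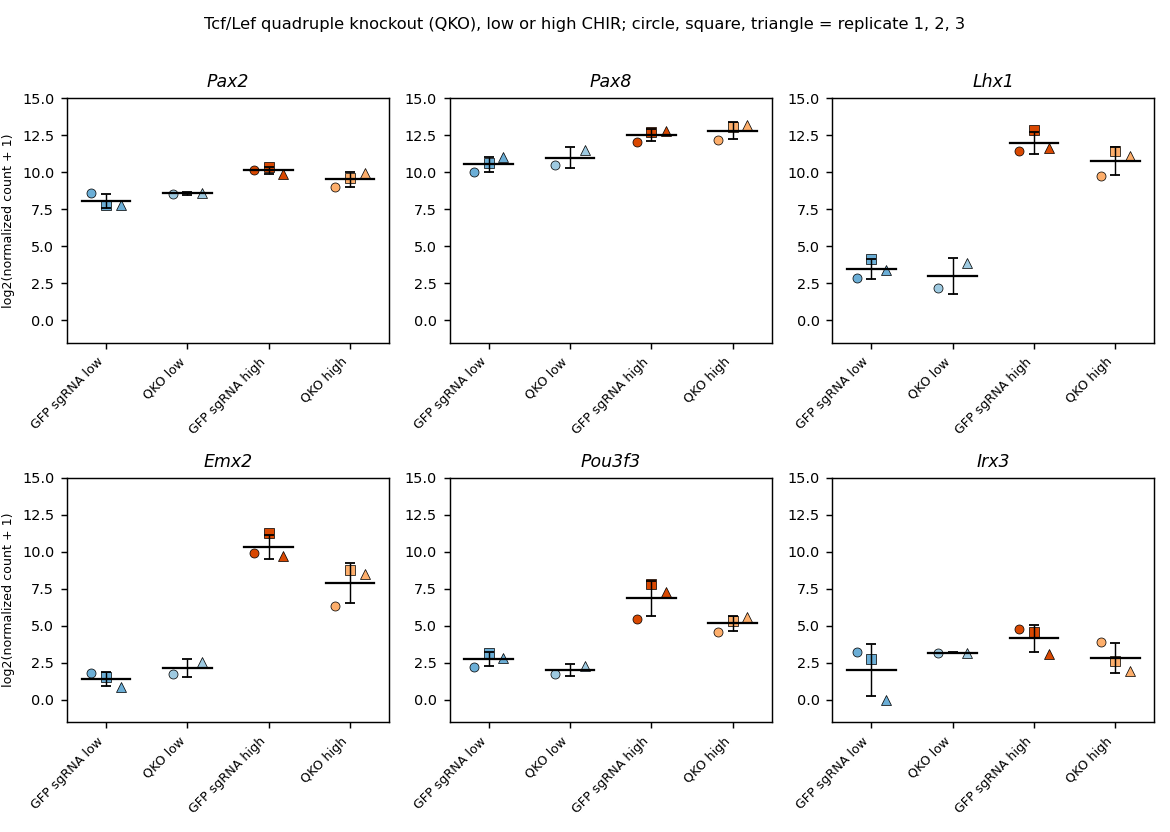
Normalized counts of 6 genes in the Tcf/Lef experiment, on a log2(normalized count + 1) axis, with GFP sgRNA or after the quadruple knockout (QKO) in low or high CHIR. Points are libraries (circle, square and triangle for replicates 1, 2 and 3), and lines and bars give the mean and SD on that axis (n = 3, or 2 for QKO in low CHIR). In high CHIR the QKO points of *Emx2* lie below all control points, and those of *Pax8* lie within or above the control range.

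In the fit without pairing, 0 of 5 members were called in the QKO in high CHIR, against 2.54% of all genes. *Emx2* gave −2.44 (SE 0.61, adjusted p = 0.0600), *Pou3f3* −1.68 (SE 0.55, adjusted p = 0.164), *Lhx1* −1.20 (SE 0.56, adjusted p = 0.361), *Pax2* −0.61 (adjusted p = 0.327) and *Pax8* 0.30 (95% confidence interval −0.47 to 1.06, adjusted p = 0.753). Libraries with the same replicate number deviated together in this experiment, so the replicate number was also used as a block. With the block 3 of 5 members were called, all lower, against 7.44% of all genes: *Emx2* (−2.44, adjusted p = 0.0123), *Pou3f3* (−1.68, adjusted p = 0.0196) and *Lhx1* (−1.20, adjusted p = 0.0175). *Pax2* (−0.61, adjusted p = 0.222) and *Pax8* (0.30, adjusted p = 0.0982) were not called with it either. *Pou3f3* was also called, without the block, when replicate 1 of the controls was left out (−2.36, adjusted p = 0.0261), so this library bears on the call.

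In the QKO markers of other cell types were read beside the members. In high CHIR 6 of 9 nephron progenitor markers rose, against 2.05% of all genes, and 7 with the block, against 5.30%. Their summed count was between 8320 and 10930 in the QKO against 4419 to 7378 with GFP sgRNA, without overlap. Of 9 stromal markers tested 0 were called, and 4 were higher with the block, against 5.30% of all genes. The summed count of the 10 listed ran from 1300 to 9495 against 1101 to 4806. The part of such cells in the member values was not tested.

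Within the QKO, high against low CHIR still raised *Lhx1* from 3.48 and 13.7 to 844, 2810 and 2188 normalized counts (log2 fold change 7.74, adjusted p = 7.41e-05) and *Emx2* from 2.32 and 4.89 to 80.8, 445 and 360 (5.74, adjusted p = 0.00105). *Pou3f3* (3.15, adjusted p = 0.0222) and *Pax8* (1.82, adjusted p = 0.0338) were called too, and *Pax2* was not (0.94, adjusted p = 0.140), which made 4 of 5 against 2.54% of all genes. *Lhx1*, *Emx2* and *Pou3f3* passed the filter through the high CHIR libraries here too, so the count and their calls are a description. Removal may be partial in these sorted cells as well, so remaining Tcf/Lef factors and a response without them cannot be told apart. *Pou3f3* was lost without replicate 1 or 3 of QKO in low CHIR or replicate 2 or 3 in high CHIR (adjusted p between 0.0804 and 0.159), and *Pax8* without replicate 1 in low CHIR or replicate 2 or 3 in high CHIR (adjusted p between 0.115 and 0.289). The interaction of QKO and CHIR was −3.16 for *Emx2* (adjusted p = 0.402), and −3.50 with the block (adjusted p = 0.0640). None of the 5 was called in it, against 0.126% of all genes. In low CHIR the QKO called none of the members, against 0.00630% of all genes.

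Per kilobase of exon, *Lhx1* stood first in the high CHIR controls of the Tcf/Lef experiment with 1075 ± 610 normalized counts per kb (SD, n = 3), overlapping *Pax8* at 995 ± 266, and was followed by *Emx2* (480), *Pax2* (207) and *Pou3f3* (18.7). In the QKO *Pax8* stood first with 1244 ± 416 normalized counts per kb, apart from *Lhx1* at 478 ± 247, which was apart from *Pax2* at 140. *Emx2* (98.3) overlapped *Pax2* and was apart from *Pou3f3* (4.87). With Cre in high CHIR the levels were 134 for *Pax8*, 27.8 for *Pax2*, 23.2 for *Lhx1* and 9.16 for *Emx2* per kb, against 328, 157, 194 and 72.6 without Cre (n = 2 each).

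**Figure D4:**
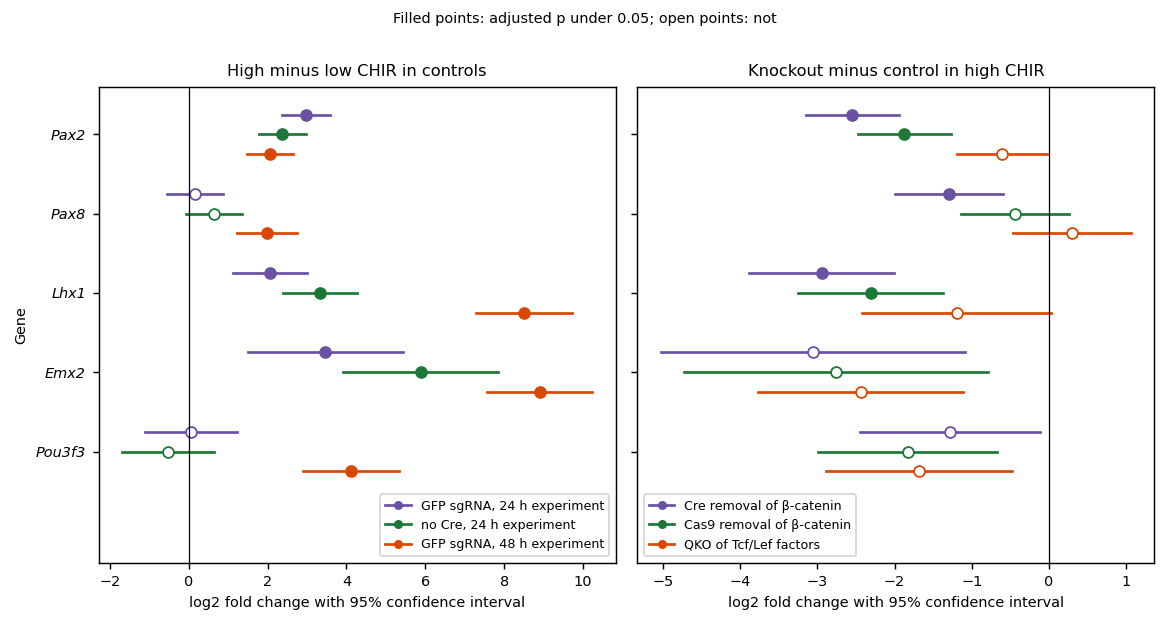
Log2 fold changes of 5 genes with 95% confidence intervals, for high minus low CHIR in the controls (left) and for knockout minus control in high CHIR (right), without a replicate block. Filled points have an adjusted p under 0.05 (limma). *Pax2* and *Lhx1* are filled and negative for both kinds of β-catenin removal, and open for the QKO.

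*Lhx1os* and *Emx2os*, noncoding genes on the strand opposite to *Lhx1* and *Emx2*, were read beside them because the libraries do not mark the strand of a read. *Lhx1os* (chromosome 11, 84525660 to 84535831) begins 125 bases from *Lhx1* and shares no exon bases with it, as the capitals in the *Lhx1* sequence show. *Emx2os* (chromosome 19, 59425104 to 59458635) shares 264 exon bases with *Emx2*, 8.79% of its exons, and reads there cannot be assigned to a strand. Such reads are ambiguous and were left out by the authors' counting where both genes are annotated. *Lhx1os* was at 1089, 1410 and 36.4 normalized counts in wild-type NPCs in high CHIR against 98.5, 166 and 46.7 in low CHIR, the same pattern over libraries as *Lhx1*. *Emx2os* was at 700, 906 and 33.6 in high CHIR against 34.2, 36.1 and 10.8 in low CHIR, again with replicate 3 low.

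In the 48 h controls *Lhx1os* went from 0, 0 and 1.73 normalized counts in low CHIR to 347, 854 and 561 in high CHIR (log2 fold change 8.62, adjusted p = 6.24e-06), and *Emx2os* from 0, 0.987 and 3.46 to 265, 642 and 331 (7.54, adjusted p = 2.39e-05). Both passed the filter on low values through the high CHIR libraries, so these calls stand as a description. The fitted values depend on the added count. In the QKO in high CHIR *Lhx1os* was at 201, 557 and 444 (−0.58, adjusted p = 0.731) and *Emx2os* at 33.0, 186 and 88.7 (−2.21, adjusted p = 0.132), so neither was called. With the replicate block *Emx2os* was called (adjusted p = 0.0396) and *Lhx1os* was not (adjusted p = 0.453). With Cre in high CHIR *Lhx1os* gave −2.61 (adjusted p = 0.0944) and *Emx2os* −3.16 (adjusted p = 0.0617), again without a call. Of the other members, *Pax8* shares 367 exon bases (6.06%) with *Gm13415*, which reached at most 41.5 normalized counts, and *Irx3* shares 124 (4.49%) with *Irx3os*, which reached 23.4.

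**Figure D5:**
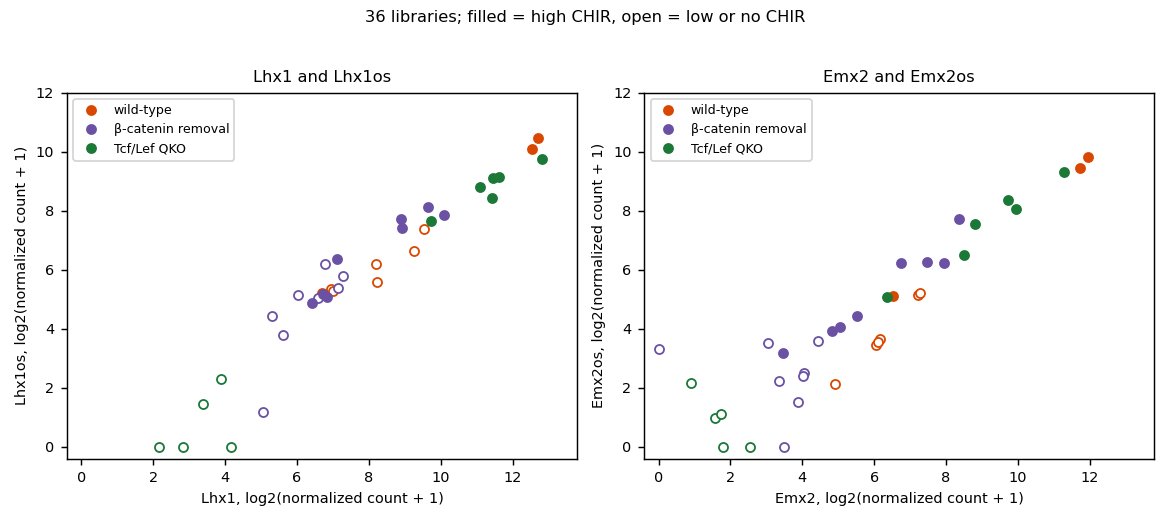
*Lhx1os* against *Lhx1* and *Emx2os* against *Emx2*, each point a library, on log2(normalized count + 1) axes, with the 3 tables in separate colors. Libraries with high counts of the coding gene have high counts of its opposite-strand neighbor, and replicate 3 of wild-type high CHIR lies with the libraries of low counts.

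For each member, the genes whose pattern over the 36 libraries was most like it were found by the Pearson correlation of log2(normalized count + 1), with each table centered on its own mean, among genes with a mean of at least 50 in all 3 tables (11711 or 11712 genes). The libraries of a table share their normalization, and groups set most of the spread, so these values are descriptions. *Pax2* was most like *Vat1l* (r = 0.949), *Plxnb1* (0.937) and *Fgfr2* (0.934). *Lhx1* was most like *Lhx1os* (0.971), *E330013P04Rik* (0.943) and *Papss2* (0.932), and *Emx2* was most like *E330013P04Rik* (0.949), *Epha4* (0.945) and *Lhx1* (0.932). *Pou3f3* followed *Papss2* (0.879) and *Lhx1* (0.846), then *Tomm34* (0.842). *Pax8* was most like *Fam81a* (0.873), *Neurl3* (0.847) and *Slco3a1* (0.844), and *Irx3* had the weakest likeness, to *Pigm* (0.798), *Cdh4* (0.795) and *Kif5c* (0.778). In wild-type NPCs alone (9 libraries) r was 0.949 between *Lhx1* and *Emx2* and 0.950 between *Emx2* and *Pou3f3*, but −0.00234 between *Pax8* and *Irx3*. Without replicate 3 of high CHIR (8 libraries) these were 0.975, 0.956 and 0.847, so 1 library set the low value of the last pair.

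Of 21 paralogs of the members, 16 were listed in at least 1 table and at most 3 passed the filter in any table. *Pou3f1*, a POU-domain paralog of *Pou3f3*, was at 3.97 and 7.58 normalized counts in low CHIR and at 114 and 113 in high CHIR with GFP sgRNA, and at 8.29 and 4.40 in high CHIR with *Ctnnb1* sgRNAs (log2 fold change of removal −4.01, adjusted p = 0.00400). It fell by 4.03 with Cre (adjusted p = 0.00202), from 93.9 and 59.1 to 2.02 and 6.07. Its groups did not overlap in either arm, and neither did those of *Pou3f3*. Such a separation downward was found in 23.1% of all genes with Cre and in 31.2% with *Ctnnb1* sgRNAs. *Pou3f1* was under 10 in all groups given here but the high CHIR groups that kept β-catenin, so its calls stand as a description. *Irx4*, an Iroquois paralog, was at 152, 101 and 113 in wild-type NPCs in low CHIR and at 12.3, 11.2 and 6.54 in high CHIR (−3.50, adjusted p = 0.000360). That direction was the reverse of *Irx3* in wild-type NPCs, and with Cre in high CHIR *Irx4* fell from 183 and 266 to 54.5 and 77.7 (−1.74, adjusted p = 0.0178). In the 24 h GFP sgRNA controls the direction of *Irx4* was the opposite. There 2 of 2 paralogs tested, *Pou3f1* and *Irx4*, were called higher in high CHIR, against 2.98% of all genes. Without Cre 1 of the 2 was called, higher, against 2.80%. *Irx5* was at 705 in wild-type high CHIR replicate 3 against 10.1 and 5.58 in the other 2, alongside the highest *Irx3* count.

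Lists of early nephron genes were chosen by name, with earlier results of these data known. They are given as counts of called genes, which with the shares of all genes stand as a description. Of 12 induction genes, which respond early to Wnt in NPCs, 9 were higher and 1 lower in wild-type high against low CHIR, against 5.33% higher and 5.05% lower of all genes. In the 48 h controls 11 of 12 were higher, against 6.98%. With Cre in high CHIR 10 of 11 tested were lower, against 2.75%, with *Ctnnb1* sgRNAs 9 of 11, against 1.64%, and in the QKO 3 of 12, against 0.491%, with 1 higher. With the replicate block the QKO count was 7 lower, against 2.14% of all genes, and 2 higher, against 5.30%. Among the genes gained were *Wnt4* (−1.19, adjusted p = 0.0154, and 0.0792 without the block) and *Jag1* (−1.22, adjusted p = 0.00691, and 0.164 without it). The median log2 fold change of the list was −2.50, −1.68 and −1.16 in these 3, beside −2.55, −1.87 and −1.20 for the members tested and −0.02, 0 and 0 for all genes. *Wnt4*, the ligand that drives the mesenchymal-to-epithelial transition, gave −3.20 with Cre (adjusted p = 0.000417) and −2.43 with *Ctnnb1* sgRNAs (adjusted p = 0.00565).

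Of 15 genes of the distal early nephron, 11 were tested with Cre in high CHIR, of which 4 were lower, against 2.75% of all genes, and 3 higher, against 5.90%. *Greb1* fell in all 3 knockouts (−3.06 with Cre, adjusted p = 0.000222, −2.11 with *Ctnnb1* sgRNAs, adjusted p = 0.00642, and −1.75 in the QKO, adjusted p = 0.00798), and *Wfdc2* fell with Cre (−2.73, adjusted p = 0.00239) and with *Ctnnb1* sgRNAs (−1.99, adjusted p = 0.0294). *Sox9* rose with Cre (2.49, adjusted p = 0.00563) and with *Ctnnb1* sgRNAs (2.44, adjusted p = 0.0116). In wild-type NPCs 4 of 12 were higher, against 5.33% of all genes, and 1 lower, against 5.05%, in high CHIR, and 8 higher and 2 lower without replicate 3 of high CHIR, against 6.51% higher and 6.64% lower of all genes. *Mecom* (1.82, adjusted p = 0.351) and *Tfap2a* (2.48, adjusted p = 0.207) were among those called higher only without it (3.47, adjusted p = 0.000159, and 4.14, adjusted p = 0.000187). In the QKO the block raised the count from 1 of 11 lower, against 0.491% of all genes, to 2, against 2.14%, with *Wfdc2* (−0.79, adjusted p = 0.0305). *Gata3*, which is also a marker of the ureteric epithelium, was at 4283, 4098 and 623 normalized counts in high CHIR against 61.8, 61.7 and 37.1 in low CHIR (5.39, adjusted p = 0.000635). The summed count of the 7 ureteric markers listed was between 5534 and 9889 in that group against 3949 to 4520 in low CHIR. This sum is not separate from *Gata3*, itself such a marker, and the part of ureteric cells was not tested.

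Of 17 medial and proximal genes, 11 were tested with Cre in high CHIR and 2 were lower, against 2.75% of all genes, *Jag1* (−2.62, adjusted p = 5.97e-05), a Notch ligand, and *Cdh6* (−1.94, adjusted p = 0.0135), a cadherin of the early proximal tubule. *Jag1* also fell with *Ctnnb1* sgRNAs (−2.22, adjusted p = 0.000435), where it was the 1 gene of 11 called, against 1.64% lower and 3.44% higher of all genes. In the QKO 1 of 11 was called, *Hey1*, which rose (1.36, adjusted p = 0.00781), against 2.05% of all genes. In wild-type NPCs in high CHIR 1 of 13 was higher, *Jag1* (2.46, adjusted p = 0.0109), against 5.33% of all genes, and 3 were lower, against 5.05%: *Dll1* (−1.45, adjusted p = 0.0298), *Notch2* (−1.52, adjusted p = 0.00181) and *Lfng* (−1.59, adjusted p = 0.0106). Without replicate 3 of high CHIR 3 were higher, among them *Heyl* (1.25, adjusted p = 0.0425, and 0.31 with adjusted p = 0.819 with that library), and 3 lower, against 6.51% and 6.64% of all genes. With the block 3 of 11 were called in the QKO, against 7.44% of all genes, since *Dll1* (2.09, adjusted p = 0.000610) was higher and *Jag1*, which is on the induction list too, was lower. Of 13 podocyte genes, 3 of 11 were higher and 5 lower in wild-type high CHIR, against 5.33% and 5.05% of all genes. The lower ones included *Wt1* (−4.11, adjusted p = 9.64e-06) and *Tcf21* (−4.99, adjusted p = 0.000891), which NPCs also express, and the higher ones included *Podxl* (2.35, adjusted p = 0.0496) and *Efnb2* (1.96, adjusted p = 0.0116). *Podxl* was not called without replicate 3 of high CHIR (1.78, adjusted p = 0.116), which left 2 higher and 5 lower, against 6.51% and 6.64%. In the QKO 2 of 13 podocyte genes were higher, against 2.05% of all genes, and 3 with the block, against 5.30%, which added *Wt1* (1.34, adjusted p = 0.00297).

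Of 22 regulators and partners of the members, 7 of 21 were lower, against 5.05% of all genes, and 0 higher, against 5.33%, in wild-type high CHIR. Without replicate 3 of high CHIR 8 were lower, against 6.64%, and 2 higher, against 6.51%, *Ssbp3* among the latter (1.12, adjusted p = 0.000483). They included *Eya1* (−5.28, adjusted p = 3.14e-08), a coactivator that works with homeobox factors in NPCs, and *Osr1*, which was at 677, 667 and 1387 normalized counts in low CHIR and at 0 in all 3 libraries in high CHIR. *Osr1* rose with β-catenin removal in high CHIR (4.44 with Cre, adjusted p = 2.21e-06, and 3.77 with *Ctnnb1* sgRNAs, adjusted p = 1.84e-05) and in the QKO (2.18, adjusted p = 0.00289). *Sall1*, a zinc-finger factor of the nephron lineage, fell from 6005 and 5584 to 2063 and 2000 with Cre (−1.51, adjusted p = 0.00101) and from 5517 and 6916 to 3060 and 3261 with *Ctnnb1* sgRNAs (−0.97, adjusted p = 0.0310). *Six4*, a homeobox gene upstream of the *Pax* genes in the lineage, gave −1.17 (adjusted p = 0.0220) and −1.31 (adjusted p = 0.0201) in the same comparisons. *Ssbp3*, which binds the LIM cofactor *Ldb1*, and *Tle4*, a corepressor, fell in the QKO (−0.94, adjusted p = 0.0151, and −0.93, adjusted p = 0.0388). The list had 2 higher and 2 lower in the QKO, against 2.05% and 0.491% of all genes, and 6 higher and 4 lower with the block, against 5.30% and 2.14%, where *Eya1* (0.90, adjusted p = 0.0283) and *Wt1*, which is on the podocyte list too, were among those added.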

How the data were processed

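NPCs were profiled by RNA-seq in 36 libraries. The authors made cDNA with a SMARTer kit, which does not mark strand, sequenced paired reads of 150 bases, aligned them with STAR to GRCm38 and GRCh38 combined (Ensembl annotation) and counted unique, unambiguous reads per gene with featureCounts. The deposited signal is a normalized count, the count divided by the DESeq2 size factor of its library, in 3 tables normalized separately. Other files the authors deposited hold each comparison's log2 fold change with its p-value and adjusted p-value, and were not used. A further 50 per-sample columns in them were not used either.

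The members, the gene lists and the rule for naming genes (all 8 members, the 3 genes most like each, and list genes called in high CHIR in wild-type NPCs or in a knockout) were chosen with earlier results of these data known. Log2(normalized count + 1) was fitted with limma 3.58.1 (trend) in R 4.3.3 over all libraries of a table, with Benjamini-Hochberg adjustment over all genes whose table mean reached 10 (17411, 16780 and 15878 genes). Each comparison was made within a table. Reads were recovered from the step of 1 read (all values were whole multiples within 0.05) and tested with edgeR 4.0.16 and DESeq2 1.42.0 in 33 libraries, as alternatives. The other 3, where 1 read was worth about 1 count, were left out of these. In the β-catenin experiments they were replicate 1 of GFP sgRNA in low CHIR and replicate 1 of Cre in high CHIR. In the Tcf/Lef experiment it was replicate 2 of GFP sgRNA in high CHIR. Both β-catenin groups thus kept only replicate 2 in the count tests, which was assumed to vary like the other libraries. The fits were tested on simulated data.

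Deviations from the group means of libraries with the same replicate number correlated at 0.214 to 0.637 in the Tcf/Lef table (15 of 15 pairs over 0.1), so these numbers were taken to pair the libraries. Lengths and places came from GENCODE vM21 and sequences from RefSeq (GRCm38.p6). Matplotlib 3.10.9 in Python 3.11.15 drew the plots. Some genes of the lists are counted but are not reported here by name.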

Additional observations from a re-analysis of the deposited data

How the results depend on the processing

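The 19 comparisons gave 98 member values, of which 26 were called. None of the 26 changed direction under any alternative, and 38 of the 1233 values under an alternative had the opposite sign, all of members not called. Of the 26 calls, 26 were kept by DESeq2, by TMM rescaling, without the filter on low values and with a replicate block, 24 with an added count of 0.5, and 23 each by edgeR and in fits of only the groups compared. Leaving out 1 library kept 99 of 128. The count of called members moved by over 1.5 times as follows, and the cause was not tested. In wild-type NPCs it was 1 between high and low CHIR, and became 0 with an added count of 0.5, 2 with the block or edgeR and 4 with DESeq2. For no against low CHIR it was 0, and became 1 with DESeq2 and 3 with only the groups compared. For the GFP sgRNA controls at 24 h it went from 3 to 1 with edgeR. For Cas9 removal in high CHIR it went from 2 to 4 with the block or only the groups compared. For Cre removal in low CHIR, and for high against low CHIR after Cre removal, it went from 0 to 1 (*Pax2*) with the block, edgeR or DESeq2. For the Cre interaction it went from 0 to 1 (*Emx2*, −4.66, adjusted p = 0.00389 in limma) with the block, and for the QKO in high CHIR from 0 to 3 with the block.

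With each replicate left out in turn, the count ranged from 0 to 5 between high and low and from 3 to 6 between high and no CHIR for the wild type, from 1 to 2 for the GFP sgRNA controls at 24 h and for Cas9 removal in high CHIR, from 2 to 3 for Cre removal in high CHIR, from 2 to 4 for high against low CHIR in the QKO, and from 0 to 1 for the QKO in high CHIR, the Cre interaction and the response left after each kind of β-catenin removal. It did not move in the other comparisons. Where this left a group with 1 library, that library was assumed to vary like the others.

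On recovered reads, the opposite sign came out for *Pax8* in wild-type high against low CHIR (1.22 with edgeR, 1.24 with DESeq2), *Pou3f3* in the 24 h GFP sgRNA controls (−0.31 and −0.32), *Pax8* after Cas9 removal in low CHIR (0.07 and 0.05), *Pou3f3* in the Cre interaction (−0.16 and −0.14) and *Emx2* between the Cre and Cas9 arms (0.52 and 0.54). All but the wild-type comparison lacked a library in these tests. Limma without replicate 1 of GFP sgRNA in low CHIR gave −0.32 for *Pou3f3* in the controls and 0.05 for *Pax8*. Without replicate 1 of Cre in high CHIR it gave 0.73 for *Emx2* between the arms, while *Pou3f3* in the Cre interaction kept its sign. With each replicate left out, the log2 values that crossed 0 ran for *Pax8* from −1.31 to 1.87 and from −0.24 to 2.94 in wild-type high against low and no CHIR, from −0.24 to 0.56 in the 24 h GFP sgRNA controls, from −0.75 to 0.05 after Cas9 removal and from −0.07 to 0.98 after QKO in low CHIR, from −0.40 to 0.34 and −0.11 to 0.25 for the response left after Cre and Cas9 removal, and from −0.49 to 0.31 and −0.68 to 0.36 in the Cas9 and QKO interactions. For *Pou3f3* they ran from −0.32 to 0.44 and −1.14 to 0.09 in the 24 h GFP sgRNA and no Cre controls, from −0.68 to 0.06 for the response left after Cre removal, from −0.40 to 0.83 in the Cre interaction and from −0.06 to 1.17 between the Cre and Cas9 arms. *Emx2* ran from −0.07 to 3.27 after Cre removal in low CHIR and from −1.32 to 0.73 between the arms, and *Lhx1* from −1.29 to 0.42 after QKO in low CHIR and from −1.62 to 0.10 in its interaction.

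Counts over all genes moved too, for Cre removal in high CHIR from 1452 to 2639 with the block, 914 with edgeR and 714 with only the groups compared, for Cas9 removal in high CHIR from 854 to 2133, 1729 (only the groups compared) and 1387 (DESeq2), and for the QKO in high CHIR from 404 to 1181 with the block and 156 with edgeR. Cre removal in low CHIR moved from 55 to 513 with the block, 248 with DESeq2 and 11 with only the groups compared, the 24 h GFP sgRNA controls from 1260 to 2562 with the block and 628 with edgeR, the 24 h no Cre controls from 1350 to 2661 and 616 (only the groups compared), and no against low CHIR from 865 to 1784 with DESeq2 and 2038 with only the groups compared. High against low CHIR in the QKO moved from 403 to 952 with the block and 875 with DESeq2. In the β-catenin experiments, deviations of libraries with the same replicate number correlated over 0.1 in 24 of 24 pairs of libraries (0.116 to 0.518). With 2 libraries a group, both replicates of a pair of groups give the same value, so these 24 are not separate values. A comparison of 2 groups there holds only 2 pairs. Among wild-type NPCs the correlation was over 0.1 in 4 of 9 pairs of libraries (−0.0156 to 0.272), so those libraries share only a number. In the Tcf/Lef table, where the numbers pair the libraries, the block changed no other call of a member. With 2 or 3 libraries a group, counts near 0 for *Irx1* and *Irx2*, and few for *Irx3* outside wild-type high CHIR, small differences could not be detected.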
